A study of Mus musculus with 6 samples.

Results

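The axon guidance ligands and receptors were taken as every row of the count table whose symbol begins with Epha, Ephb, Efna, Efnb, Sema, Plxna, Plxnb, Plxnc, Plxnd, Unc5 or Robo, together with Slit1 to Slit3, Ntn1, Ntn4, Ntng1, Ntng2, Dcc, Nrp1 and Nrp2. This gave 71 of 20234 rows, and all 71 had at least 1 UMI (unique molecular identifier, a count of 1 captured transcript) in the cells that were kept. Unc50 and Unc5cl match the letters but are not netrin receptors; they stay in the counts and are named where they bear on one. The 71 rows comprised 14 Eph receptors, 8 ephrins, 20 semaphorins, 9 plexins, 2 neuropilins, 4 Robo receptors, 3 Slits, 2 netrins, 2 netrin-Gs and 5 netrin receptors, besides those 2.

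CA1 tissue of 6 male C57Bl6 mice was measured by Drop-seq, a droplet method that tags the transcripts of each cell with the barcode of a bead. At postnatal day 28, 3 mice received 1 injection of placebo (mice 1, 3 and 5) and 3 received 5000 IU/kg recombinant human EPO (erythropoietin; mice 2, 4 and 6), and tissue was taken 6 h later. A barcode was kept when over 1000 but no more than 8000 genes were detected and mitochondrial UMIs did not pass 40%, which held for 973 of 6000, of which 390 came from placebo and 583 from EPO mice. UMIs per mouse ranged from 204479 in placebo mouse 3, with 43 cells, to 1948490 in EPO mouse 4, with 271 cells.

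Retained cells of placebo mouse 1 and EPO mouse 4 shared 26 barcodes, and no other pair of mice shared any. Each of the 26 had fewer UMIs in EPO mouse 4 than in placebo mouse 1, with medians of 3932.5 and 14730.5, and each fell into the same cell class in both mice. The median correlation of log-normalized counts was 0.763 within a shared barcode and 0.408 between different ones. These cells held 45.3% of the UMIs of placebo mouse 1 and 6.60% of those of EPO mouse 4. The number of members called is therefore also given without them, as are the named members that lost a call. Further members that lost a call are not named.

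Axon guidance molecules steer growing axons by attraction and repulsion, and many stay expressed in the mature brain, where they act at synapses, on spines, in myelin and in vessels. Ephrins are membrane-bound ligands of the Eph receptor tyrosine kinases. Secreted class 3 semaphorins bind neuropilins, which signal through A-type plexins, with Sema3e binding Plxnd1 directly, while most membrane-bound semaphorins bind plexins without a neuropilin. Slits bind Robo receptors, netrin-1 binds Dcc and the Unc5 receptors, and the membrane-anchored netrin-Gs bind the synaptic adhesion proteins Lrrc4c and Lrrc4.

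The levels of 3 members of the oligodendrocyte lineage, given below, differed by cell class. Plxnb3 was high in precursor-like and in oligodendrocyte-like cells, Sema3d in precursor-like and Unc5b in oligodendrocyte-like cells. Their promoters are shown as examples, since other members were also called higher in this lineage. Each is the 250 bases before the start site in RefSeq (GRCm38.p6), 5′ to 3′ on the gene's strand. Capitals mark ACAAAG, a core bound by SOX factors, CANNTG (E-box) and GGGCGG (GC box), searched on both strands. The windows are chrX:73756853-73757102 (+) for Plxnb3, chr5:12382916-12383165 (+) for Sema3d and chr10:60831582-60831831 (-) for Unc5b.
Plxnb3: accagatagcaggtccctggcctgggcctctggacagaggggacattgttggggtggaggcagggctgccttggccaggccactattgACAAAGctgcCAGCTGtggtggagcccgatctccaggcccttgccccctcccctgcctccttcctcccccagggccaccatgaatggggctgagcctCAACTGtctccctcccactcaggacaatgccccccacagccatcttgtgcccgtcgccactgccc
Sema3d: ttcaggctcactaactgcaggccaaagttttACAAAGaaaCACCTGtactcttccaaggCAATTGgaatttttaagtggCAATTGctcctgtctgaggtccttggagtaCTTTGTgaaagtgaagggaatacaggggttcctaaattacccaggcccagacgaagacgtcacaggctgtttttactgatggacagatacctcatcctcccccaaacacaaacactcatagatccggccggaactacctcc
Unc5b: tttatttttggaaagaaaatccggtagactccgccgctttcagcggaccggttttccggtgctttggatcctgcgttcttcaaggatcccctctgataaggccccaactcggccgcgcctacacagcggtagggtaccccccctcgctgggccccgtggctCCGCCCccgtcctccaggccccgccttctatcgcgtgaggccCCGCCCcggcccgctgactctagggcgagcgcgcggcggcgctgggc

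The Plxnb3 window held 1 ACAAAG and 2 E-boxes, the Sema3d window 2 and 3, and the Unc5b window neither but 2 GC boxes. Windows of Ephb1, Sema4d and Sema5a, also called higher in this lineage, held no ACAAAG and 0, 1 and 0 E-boxes. Unc5b had 27 CpG sites in the 250 bases, against 3 in Plxnb3 and 4 in Sema3d. Windows were available for 61 of the 71 members, 1 each, taken nearest the annotated gene start. Some lay far from that start: 354843 bases for Robo1, 271370 for Sema3a, 37064 for Sema4d and 4906 for Ntng2. Of the 61 windows, 11.5% held ACAAAG, 47.5% an E-box and 73.8% a GC box. Among all 32817 windows of the same length the shares were 16.5%, 66.2% and 32.7%. The median GC content was 64.8% in members and 52.4% in all windows and windows were not matched on it. These counts are a description, and no binding was measured.

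To see which cells carry which members, cells were clustered without the member genes and classes were named from standard markers. They were 619 glutamatergic-like, 129 oligodendrocyte-like, 77 astrocyte-like, 53 GABAergic-like, 39 endothelial-like, 38 oligodendrocyte precursor-like and 18 microglia-like cells. In each of these classes all markers of its list were detected in the cluster or clusters, except 1 of 6 glutamatergic markers in 3 of the 6 glutamatergic-like clusters. The GABAergic-like cluster also took in 8 cells with more UMIs of mural (pericyte and smooth muscle) than of GABAergic markers. Levels are CPM, UMI counts scaled to the same total in every library of a mouse's cells of a class, for mice with at least 5 cells of the class, and are not scaled by gene length, so they are compared between cells and not between genes.

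All members together made up 3957 ± 269 CPM of glutamatergic-like cells (SD, n = 6 mice), 3997 ± 648 of endothelial-like cells (n = 5) and 2696 ± 374 of GABAergic-like cells (n = 5). The sum was 2657 ± 1123 in oligodendrocyte precursor-like cells (n = 3), 2129 ± 475 in oligodendrocyte-like cells (n = 6) and 1180 ± 238 in astrocyte-like cells (n = 6). The glutamatergic-like and endothelial-like sums were alike in size, but different families filled them. Pooled over mice, Eph receptors took 2021 of 3894 CPM in glutamatergic-like cells and semaphorins 2041 of 3855 in endothelial-like cells. Semaphorins also took 1370 of 2493 CPM in precursor-like and 803 of 2142 in oligodendrocyte-like cells.

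**Figure D1:**
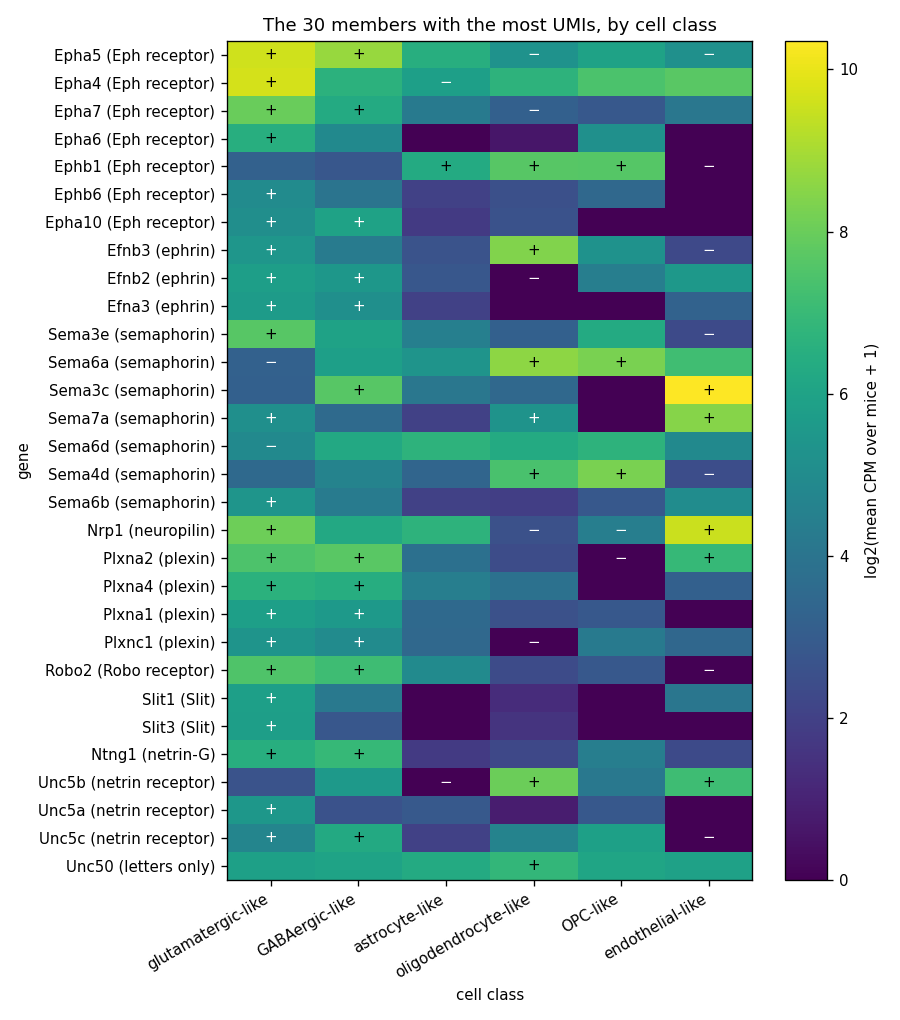
Rows are the 30 members with the most UMIs, ordered by family, and columns are cell classes (OPC, oligodendrocyte precursor); color is log2(mean CPM over mice + 1), and + or − marks a gene called higher or lower than the other classes (edgeR, adjusted p under 0.05). Eph receptors other than Ephb1 peak in neurons, while Sema6a, Sema4d and Ephb1 peak in the oligodendrocyte lineage and Sema3c, Sema7a and Nrp1 in endothelial-like cells.

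Each class was then compared within mice with the equally weighted mean of the other classes by edgeR's quasi-likelihood test on UMIs summed per mouse and class, with Benjamini-Hochberg adjustment over 12198 genes. The test covered 61 members; the other 10 had under 20 UMIs. Glutamatergic-like libraries held 73.4% of all UMIs, so a gene could pass this filter through that class alone, and member counts are therefore set beside those of all genes that passed and read no further. Of the 61, 56 were called in at least 1 class, where 70.5% of all genes tested were, and 5 in none (Efna2, Efnb1, Sema3a, Sema4c and Sema5b, named after their values were seen). The contrast averages log levels, so a fitted fold change is enlarged where other classes sit at or near 0, and the levels themselves should be read first. Marker lists of other classes are a rough guide to the background level of a gene that a class should lack. Carry-over of RNA between cells was not measured. The glutamatergic list stood at 9.81% of its glutamatergic-like level in GABAergic-like cells and at 2.74% to 6.76% in the other tested classes. The oligodendrocyte list stood at 0.852% of its oligodendrocyte-like level in glutamatergic-like cells.

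Glutamatergic-like cells were higher for 38 and lower for 3 of 61 members, where 42% and 6.19% of all genes tested were called. The median log2 difference was 1.94 over members and 0.75 over all genes tested, so differences in this class should be read against an upward shift of all genes. Epha4, a receptor of both ephrin classes known for limiting spine growth, lay at 696, 995 and 949 CPM in placebo mice 1, 3 and 5 and at 836, 723 and 774 in EPO mice 2, 4 and 6. No mouse had an Epha4 level over 355 CPM in any other class tested, and the log2 difference was 3.34 (SE 0.23, adjusted p = 4.6e-47, higher in 6 of 6 mice). Epha5 was at 775 ± 84 CPM in glutamatergic-like cells (SD, n = 6) and at 433 ± 168 in GABAergic-like cells (n = 5), and was called higher in both (log2 3.69, SE 0.24, and 2.24, SE 0.31). The GABAergic-like call was lost when each cell was classed by its own markers (log2 0.70, edgeR adjusted p = 0.052). Epha7 (log2 3.83, SE 0.30) and Epha6 (4.99, SE 0.49) were higher in 6 of 6 mice as well. In all, 9 of 10 Eph receptors tested were called higher in this class and none lower.

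Some of the Eph receptor signal outside glutamatergic-like cells lay near the shares of the glutamatergic markers. Pooled over mice, Epha4 in GABAergic-like and astrocyte-like cells stood at 10.8% and 7.61% of its glutamatergic-like level, beside 9.81% and 6.76% for the glutamatergic markers. It reached 12.4% in oligodendrocyte-like, 19.97% in precursor-like and 21.9% in endothelial-like cells, beside marker shares of 4.22%, 2.74% and 3.44%. Epha5 in GABAergic-like cells stood at 58.6%. The Epha4 share in astrocyte-like and GABAergic-like cells was thus close to the marker share, and in the other classes named above it. Whether this signal was carry-over or low expression was not tested.

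The Slit ligands and the receptors Robo2 and Robo3 were called higher in the same class. Slit3 was at 54.5 ± 11.5 CPM in glutamatergic-like cells (SD, n = 6; log2 5.64, SE 0.62, adjusted p = 2.6e-18) and Slit1 at 55.7 ± 10.0 (log2 4.53, SE 0.55). No Slit UMI was found in 77 astrocyte-like or 38 precursor-like cells, which allows up to 10.7 and 21.7 CPM per gene from counting alone. Robo2, a main Slit receptor, lay between 150 and 201 CPM in glutamatergic-like cells of the 6 mice and was called higher there (log2 4.42, SE 0.38). In endothelial-like cells no Robo2 UMI was found, which allows up to 15.9 CPM. Robo3 was found in neurons of this class alone among those tested, at 23.0 ± 12.3 CPM, apart from 1 UMI in microglia-like cells.

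Among class 3 semaphorins, Sema3e was the glutamatergic-like member, with 122, 289 and 207 CPM in placebo mice and 227, 153 and 205 in EPO mice (log2 3.36, SE 0.30, adjusted p = 9.2e-27). Its receptor Plxnd1 was at 19.8 ± 7.13 CPM in the same cells and highest in endothelial-like cells at 86.0 ± 73.7 (n = 5). Nrp1, Plxna2, Plxna4 and Plxna1, which form receptors for the other class 3 semaphorins, were also called higher in glutamatergic-like cells (log2 2.80, 3.71, 3.51 and 3.33). Against this direction, Sema6a, Sema6d and Sema5a, transmembrane semaphorins, were called lower (log2 -3.58, -0.92 and -1.91). Sema6a lay at 8.37 ± 3.55 CPM there. The call for Sema5a was lost without EPO mouse 4 (adjusted p = 0.081), EPO mouse 6 (0.13) or placebo mouse 1 (0.82), and that for Sema6d without placebo mouse 1 (0.13) or without the shared-barcode cells of both mice (0.13). Sema5a was also lost with at least 10 cells per library (0.11), and Sema6d in limma (0.21).

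**Figure D2:**
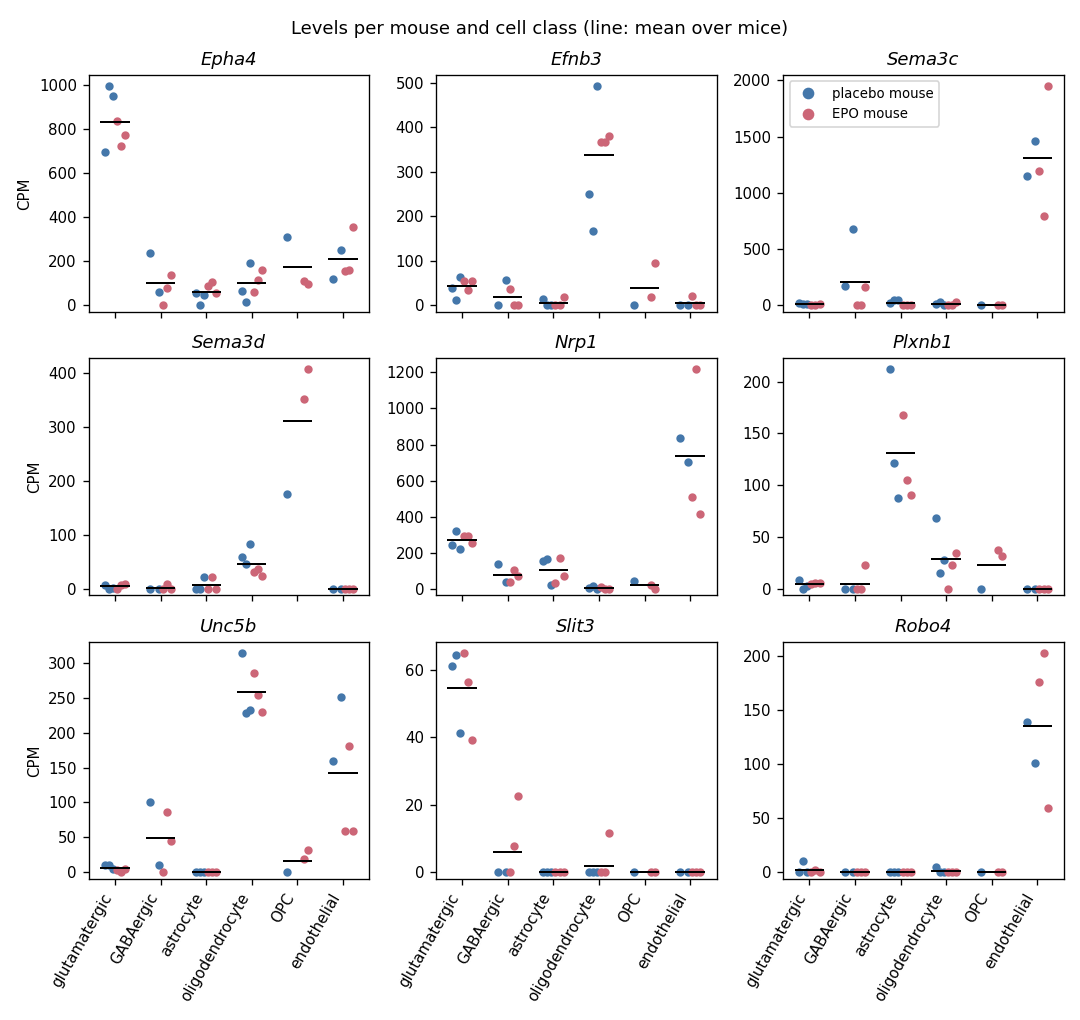
Each panel plots 1 member in CPM by cell class; points are mice with at least 5 cells of the class (blue placebo, red EPO) and lines are means over mice. Epha4 and Slit3 stand highest in glutamatergic-like cells, Efnb3 and Unc5b in oligodendrocyte-like cells, Sema3d in precursor-like cells, Plxnb1 in astrocyte-like cells, and Sema3c, Nrp1 and Robo4 in endothelial-like cells.

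GABAergic-like cells were higher for 21 members and lower for none, against 13.7% and 3.37% of all genes tested. The median log2 difference was 1.25 over members and 0.19 over all genes. Without EPO mouse 4, which gave 15 of the 53 cells, 10 members were called. Unc5d, a netrin receptor that also binds the Flrt adhesion proteins, was at 0 and 76.5 CPM in placebo mice 1 and 5 and at 222, 141 and 112 in EPO mice 2, 4 and 6. It averaged 12.1 ± 6.93 in glutamatergic-like cells and was at 0 in astrocyte-like, precursor-like and endothelial-like cells. Plxna2 lay at 148 to 290 CPM in the 5 mice (log2 3.58, SE 0.47, higher in 5 of 5). Ntng1, the netrin-G1 ligand of Lrrc4c, was uneven: 392 CPM in EPO mouse 4, 179 in EPO mouse 6, 33.4 in placebo mouse 1 and 0 in the other two, and its call was lost without EPO mouse 4 (adjusted p = 0.067). Sema3c was as uneven, with 679 CPM in placebo mouse 5, 167 in placebo mouse 1, 157 in EPO mouse 6 and 0 in the other two.

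Of the members called higher in GABAergic-like cells, Ntn4 had 17 of its 18 UMIs in the 8 mural cells. Unc5d, Ntng1 and Sema3c had none there, and Plxna2 had 1 of 74. Without these cells 21 members were called, though not necessarily the same ones, as Ntn4 kept 1 UMI in the other 45 cells. Lrrc4c and Lrrc4, the partners of netrin-G1 and netrin-G2, were at 207 ± 44 and 82.0 ± 27.7 CPM in glutamatergic-like cells and at 115 ± 61 and 68.6 ± 50.5 in GABAergic-like cells. Ntng2 had 17 UMIs in all, 15 of them in glutamatergic-like cells, and was not tested.

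Oligodendrocyte-like cells were higher for 12 members, Unc50 among them, and lower for 8, against 14.6% and 7.33% of all genes. The median log2 difference was -0.63 over members and 0.03 over all genes. Efnb3 (chromosome 11, 69554092 to 69560205, minus strand, GRCm38), an ephrin studied as a myelin component, was at 251, 168 and 494 CPM in placebo and 367, 366 and 380 in EPO mice. In the other classes its mean did not pass 42.2 CPM, and the log2 difference was 4.65 (SE 0.32, adjusted p = 5.6e-45, higher in 6 of 6 mice). Unc5b, a netrin receptor also known from vessels, lay at 315, 229 and 233 CPM in placebo and 286, 254 and 230 in EPO mice (log2 4.66, SE 0.36). It was at 0 in all astrocyte-like cells, which allows up to 10.7 CPM, and its ligand Ntn1 had 10 UMIs in all cells, none of them in oligodendrocyte-like cells.

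Sema6a, Plxnb3, Ephb1 and Sema4d were called higher both in oligodendrocyte-like and in precursor-like cells. These 2 classes were not cleanly separate stages. The precursor-like class was named from markers of precursors and of committed precursors together, and Gpr17, Bcas1 and Enpp6 were among its leading genes. The oligodendrocyte list stood there at 19.1% of its oligodendrocyte-like level, against 2.22% or less in every other class. Sema4d, a transmembrane semaphorin known to restrain oligodendrocyte maturation, was at 168 ± 82 CPM in oligodendrocyte-like cells (n = 6) and at 311 ± 361 in precursor-like cells (n = 3). Plxnb3, a plexin of the oligodendrocyte lineage, was at 98.7 ± 26.4 and 150 ± 85 and had 2 UMIs in all other tested classes together. Sema6a was at 382 ± 258 and 310 ± 263, with 891 CPM in placebo mouse 5 and at most 386 in the other five mice. The precursor-like means rest on placebo mouse 1 and EPO mice 4 and 6, and EPO mouse 6 was the highest of these for all 4 genes. On the lower side, Nrp1 had 3 UMIs in 129 oligodendrocyte-like cells (5.0 ± 6.4 CPM; log2 -4.69, SE 0.79), and Efnb2, Ntn4, Plxnd1, Nrp2 and Plxnc1 had none, which allows up to 3.55 CPM each. The Plxnd1 call was lost without the mural cells of the GABAergic-like cluster (adjusted p = 1).

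Precursor-like cells were higher for 7 members and lower for 2, against 3.48% and 0.598% of all genes tested. The median log2 difference was -0.53 over members and -0.15 over all genes. Sema3d, a secreted semaphorin, was at 176 CPM in placebo mouse 1 and at 351 and 407 in EPO mice 4 and 6, and at 46.2 ± 21.7 in oligodendrocyte-like cells (n = 6). Sema5a, which can attract or repel axons, was at 263, 222 and 407 CPM in the same mice, and at 35.5 ± 24.2 in oligodendrocyte-like cells. Both genes lay above the mean of the other classes in 3 of 3 mice (log2 5.15, SE 0.60, and 3.82, SE 0.53). Plxna2 had no UMI in the 38 cells, and Nrp1 had 2. These lower calls were lost without the shared-barcode cells of both mice (adjusted p = 0.094 and 0.066), and the Nrp1 call was also lost without EPO mouse 2 (0.062) or placebo mouse 3 (0.066), which have no precursor-like library of their own.

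Endothelial-like cells were higher for 8 members and lower for 8, against 9.39% and 8.46% of all genes. The median log2 difference was -1.74 over members and -0.47 over all genes. Sema3c (chromosome 5, 17574281 to 17730268, plus strand, GRCm38) was at 1153 and 1458 CPM in placebo mice 1 and 5 and at 1194, 789 and 1952 in EPO mice 2, 4 and 6. The highest Sema3c level in any other class was 679 CPM, in the GABAergic-like cells of placebo mouse 5 described above, and the log2 difference was 6.69 (SE 0.34, adjusted p = 4.8e-82, higher in 5 of 5 mice). Nrp1, a co-receptor of class 3 semaphorins and of VEGF, stood at 736 ± 315 CPM (log2 3.81, SE 0.32). Sema3g, Sema7a and Robo4, the endothelial Robo, were at 240 ± 126, 350 ± 200 and 136 ± 58 CPM, each higher in 5 of 5 mice. Robo4 had 5 UMIs in all other tested classes together. Both a secreted ligand and a co-receptor were high in these cells, while Ephb1, Robo2, Robo1 and Unc5c had no UMI in them. The lower calls of Sema3e and Sema4d did not hold when single mice were left out: Sema3e was lost without EPO mouse 2 (adjusted p = 0.058) or EPO mouse 4 (0.25), and Sema4d without EPO mouse 2 (0.084), EPO mouse 6 (0.17) or placebo mouse 1 (0.32) and without the shared-barcode cells of both mice (0.11).

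Astrocyte-like cells were higher for 6 members and lower for 2, against 10.2% and 3.81% of all genes, with a median log2 difference of -0.46 over members and -0.06 over all genes. Plxnb1, a receptor of Sema4d, was at 212, 122 and 87.4 CPM in placebo and at 168, 105 and 90.1 in EPO mice (log2 4.41, SE 0.56, adjusted p = 1.1e-13, higher in 6 of 6). The lowest of these lay above the highest in any other class tested, 68.4 CPM in oligodendrocyte-like cells. Sema4a was at 31.7 ± 9.4 CPM on 9 UMIs, with all 6 mice between 21.0 and 42.4. Ephb3 had 6 UMIs, all in EPO mice 4 and 6, and its call was lost without either mouse (adjusted p = 0.67 and 0.19). Robo1, at 244 CPM in placebo mouse 3 and 0 in placebo mouse 5 and EPO mouse 4, was lost without placebo mouse 3 (0.17) or EPO mouse 2 (0.12). The Robo1 call was also lost with at least 10 cells per library (0.26) and with at most 20% mitochondrial UMIs (0.064). Both Robo1 and Ephb3 lost their calls when each cell was classed by its own markers (0.19 and 0.23) and in limma (0.15 and 0.32).

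**Figure D3:**
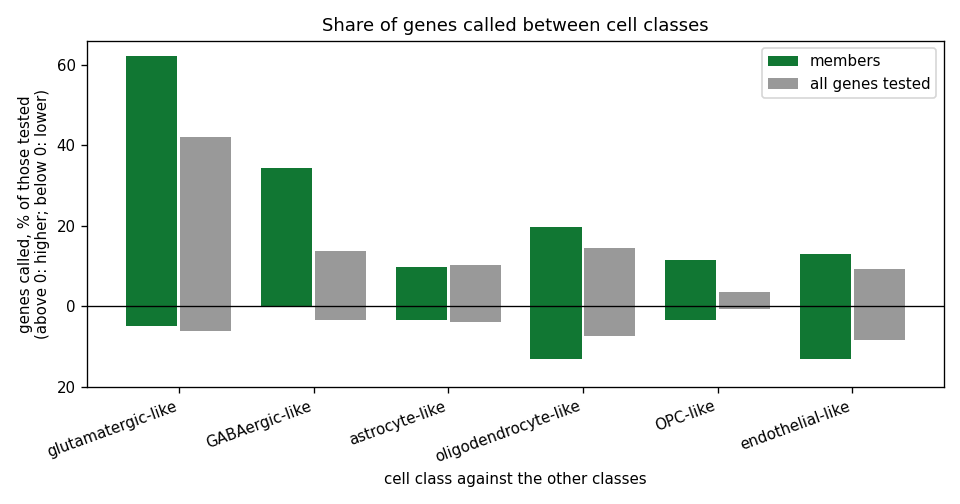
Bars give the percent of genes called higher (above 0) and lower (below 0, drawn downward) in each class against the other classes, for the 61 members tested (green) and for all 12198 genes tested (gray; edgeR, adjusted p under 0.05). Member bars reach 38 of 61 higher in glutamatergic-like cells and 21 of 61 in GABAergic-like cells, and in astrocyte-like cells both member bars lie close to the gray ones.

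Microglia-like cells, 18 in all, reached 5 cells in 2 mice only and were not tested. They had 73 UMIs of 27 members. Nrp1 led with 12 UMIs, 232 CPM with an exact Poisson interval of 120 to 406 for counting error, and Sema4d had 7 UMIs, 136 CPM (54.5 to 279).

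Of 63 listed effectors and partners of the pathway outside the families, 60 were tested. In glutamatergic-like cells 34 were higher and 4 lower, beside 42% and 6.19% of all genes tested, and in GABAergic-like cells 16 and 3, beside 13.7% and 3.37%. In oligodendrocyte-like cells 13 were higher and 15 lower, beside 14.6% and 7.33%, and in endothelial-like cells 8 and 20, beside 9.39% and 8.46%. In astrocyte-like cells the counts were 8 and 4, beside 10.2% and 3.81%, and in precursor-like cells 5 and 1, beside 3.48% and 0.598%. Chn1, the Rac regulator that acts below Epha4, was at 1015 ± 254 CPM in glutamatergic-like cells (log2 4.19, SE 0.24), and Gap43, a growth cone protein, at 638 ± 209 (log2 3.58, SE 0.24). The small GTPases Rhoa and Rras were lower there (log2 -1.29, SE 0.30, and -2.14, SE 0.68). Cntn2, an adhesion protein of the juxtaparanode, led in oligodendrocyte-like cells at 606 ± 165 CPM (log2 6.52, SE 0.37), where Trio, a Rac exchange factor, had 6 UMIs. Fyn, the kinase that couples many guidance receptors to the cytoskeleton, led in precursor-like cells at 1803 ± 543 CPM (log2 3.81, SE 0.29), and Trio was at 430 ± 37 there. Ablim1, an actin-binding protein, led in endothelial-like cells at 1519 ± 369 CPM (log2 4.87, SE 0.28). Ptprf, a receptor phosphatase, was at 155 ± 130 CPM in astrocyte-like cells (log2 3.15, SE 0.54).

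Within glutamatergic-like cells, 6 clusters differed in their members, given here without a test because the cells that define the clusters also carry these levels. Clusters 1, 3, 4 and 10 had the CA1 list as their highest. Cluster 10 held cells of only EPO mouse 4 (22) and placebo mouse 1 (15), the mice that share barcodes, and 6 of its cells were shared-barcode cells. Cluster 5 (82 cells, led by Nts and Slc17a6) had the subiculum list as its highest, with 4 of its markers detected. Cluster 0 (143 cells, led by Hba-a1, Tshz3 and Garnl3) had the deep-layer list, also with 4 markers detected. Of that list, only Garnl3 was among the 10 leading genes of cluster 0. Sema3e was at 202 ± 65, 297 ± 95, 288 ± 25 and 220 ± 82 CPM in clusters 1, 3, 4 and 10 (n = 5, 4, 5 and 2 mice), and at 48.0 ± 15.1 and 42.6 ± 31.1 in clusters 5 and 0 (n = 5 and 6). Every mouse's level in the CA1-type clusters, the lowest being 149 CPM, lay above every level in the other two, the highest being 92.1. Robo2 fell in the same order, with 204 to 279 CPM in the CA1-type clusters and 78.1 ± 10.1 in cluster 5, though cluster 0 reached 199.5 CPM in EPO mouse 6. Epha4 ran from 273 ± 68 in cluster 0 through 603 ± 112 in cluster 5 and 620 ± 59 in cluster 1 to 1304 ± 314 in cluster 4.

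Epha5 did not follow that order, with 988 ± 240 CPM in cluster 0, 849 ± 184 in cluster 5 and 632 ± 59 in cluster 3. Slit1, which guides axons away by binding Robo receptors, was at 144 ± 66 CPM in cluster 4 and 101 ± 16 in cluster 1, and at 18.5 ± 4.0 and 17.6 ± 20.5 in clusters 5 and 0. Plxna1 was at 128 ± 37 in cluster 4 and at 40.2 ± 19.8 in cluster 5; both genes stood among the 10 leading genes of cluster 4, although members had been kept out of the clustering. In the other direction, Unc5d was at 50.3 ± 13.4 CPM in cluster 5 and 32.0 ± 28.6 in cluster 0, and had 4 UMIs in the 4 CA1-type clusters together. Ntng1 and Sema6d leaned the same way, at 213 ± 197 and 81.5 ± 37.2 in cluster 0. The Ntng1 mean is set by placebo mouse 3, with 596 CPM from 7 cells, and the other mice lay between 85.6 and 255. Clusters 0 and 1 had median mitochondrial shares of 20.8% and 17.2%, against 3.32% to 8.93% in the other four, and the part of cell quality in these levels was not tested.

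**Figure D4:**
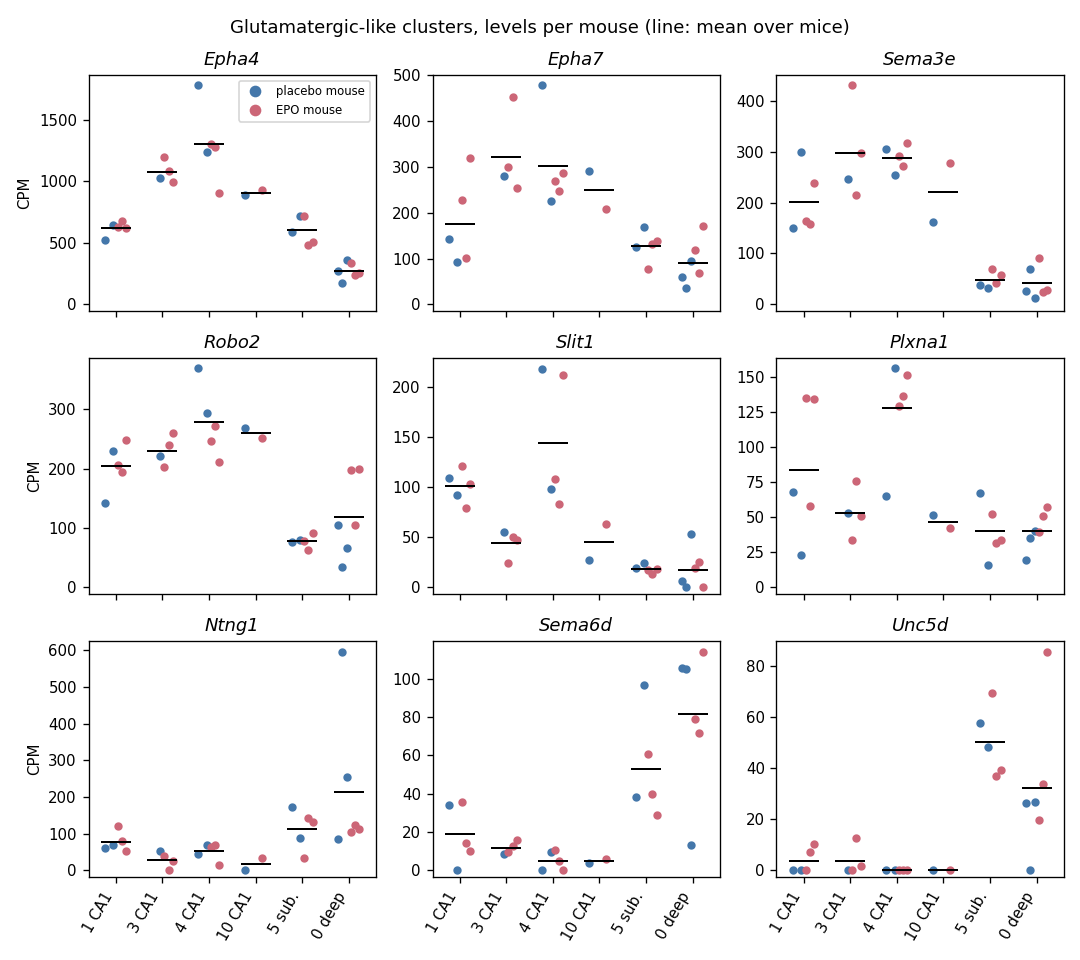
Each panel plots 1 member in CPM over the 6 glutamatergic-like clusters (CA1-type 1, 3, 4 and 10, subiculum-type 5, deep-layer-type 0); points are mice with at least 5 cells of the cluster (blue placebo, red EPO) and lines are means. Epha4, Epha7, Sema3e and Robo2 stand higher in most CA1-type clusters, and Sema6d and Unc5d in clusters 5 and 0.

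EPO was compared with placebo per mouse on summed UMIs. Over all retained cells, 51 members could be tested and none passed an adjusted p of 0.05 by edgeR, where 0% of all 10043 genes did. At an unadjusted p under 0.05 there were 3 members among 127 genes; limma called 0 and DESeq2 1 gene, which was no member. The median log2 change was 0.18 over members and -0.01 over all genes. In glutamatergic-like cells 37 members were tested, 0 called and 1 under the unadjusted threshold (0% of 8522 genes called, 158 unadjusted). In oligodendrocyte-like cells 8 members were tested, with 0 called and 0 under the unadjusted threshold (0% of 1539 genes, 24 unadjusted). DESeq2 and limma called 0 genes in both classes. Medians over members were 0.08 and 0.28 in these classes, beside 0.0024 and -0.02 over all genes. The sum of all members was 3057, 2939 and 3616 CPM in placebo and 3596, 3491 and 3632 in EPO mice, which overlap.

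Unc5c, a netrin receptor that mediates repulsion (chromosome 3, 141465216 to 141834924, plus strand, GRCm38), had the smallest p of the members, and with Sema3c and Robo1 it made up those under the unadjusted threshold. It was at 13.3, 14.7 and 20.9 CPM in placebo mice 1, 3 and 5 and at 37.9, 40.5 and 31.7 in EPO mice 2, 4 and 6, so the groups did not overlap. The log2 change was 1.10 (SE 0.31, edgeR adjusted p = 1.00), 1.22 without the shared-barcode cells of both mice, and from 0.95 to 1.34 over all alternatives and single mice left out. The labels' D number, whose meaning is not stated, splits the mice into placebo 1 and 3 with EPO 2, and placebo 5 with EPO 4 and 6. Because the groups did not overlap, any split into parts that hold both groups must show higher EPO levels of Unc5c in each part. In glutamatergic-like cells it was at 15.6, 10.7 and 16.2 CPM in placebo and 45.2, 36.5 and 27.0 in EPO mice (log2 1.17, SE 0.37, adjusted p = 1.00).

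Cluster 5, where Unc5c averaged 47.4 ± 20.8 CPM, took 9.23%, 3.36% and 9.57% of the UMIs of placebo mice 1, 3 and 5 and 12.1%, 19.4% and 27.5% of those of EPO mice 2, 4 and 6. Both this share and Unc5c over all cells were higher in every EPO mouse than in every placebo mouse. Within groups they did not always go together. EPO mouse 6 had the highest share and, at 31.7 CPM, the lowest Unc5c of the EPO mice, while placebo mouse 5 was highest in both among placebo mice. The part of this share in the difference was not tested. Within cluster 5, Unc5c was at 38.5 and 16.1 CPM in placebo mice 1 and 5 and at 69.3, 60.7 and 52.4 in EPO mice 2, 4 and 6, while placebo mouse 3 had 2 cells there. Placebo mice 1 and 5 gave 8 and 18 cells of cluster 5, so their Unc5c levels rest on few UMIs and counting error is wide. Over all cells, the Unc5c and Unc5d levels of placebo mouse 3, with 204479 UMIs of all genes, rest on few UMIs too. Unc5d, the other netrin receptor of cluster 5, was at 10.7, 4.89 and 12.4 CPM in placebo and 17.9, 21.6 and 18.02 in EPO mice over all cells (log2 0.82, SE 0.38, adjusted p = 1.00), and within cluster 5 at 57.8 and 48.4 against 69.3, 37.0 and 39.3.

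Groups also did not overlap for Sema3c and Nrp1. Of the 51 members tested, 3 were higher (Unc5c, Unc5d and Nrp1) and 1 lower (Sema3c) in every EPO mouse than in every placebo mouse, where 3.88% and 1.97% of all genes tested were. Sema3c was at 70.2, 88.0 and 82.7 CPM in placebo and 66.3, 21.6 and 34.6 in EPO mice (log2 -1.03, SE 0.39, adjusted p = 1.00), and its log2 change ran from -1.60 without EPO mouse 2 to -0.70 without EPO mouse 4. Endothelial-like cells, which hold most of its UMIs, gave 4.47%, 2.97% and 1.54% of UMIs in placebo and 5.37%, 2.28% and 1.22% in EPO mice, and GABAergic-like cells of placebo mouse 5 gave 71 of its UMIs. Within endothelial-like cells the placebo and EPO levels given above overlapped. Nrp1 was at 206, 210 and 193 CPM in placebo and 252, 244 and 219 in EPO mice (log2 0.19, SE 0.22).

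Robo1, at 24.0, 39.1 and 33.2 CPM in placebo and 16.8, 14.4 and 24.5 in EPO mice, overlapped, with EPO mouse 6 above placebo mouse 1 (log2 -0.77, SE 0.32, adjusted p = 1.00). Sema6a was at 81.7, 97.8 and 66.5 CPM in placebo and 42.1, 78.0 and 34.6 in EPO mice (log2 -0.65, SE 0.36). Oligodendrocyte-like cells, where Sema6a is high, gave 19.5%, 32.1% and 5.63% of UMIs in placebo and 10.3%, 15.5% and 6.26% in EPO mice. The part of these shares was not tested, and in sums over all cells fewer cells of a class and less RNA per cell cannot be told apart. Within oligodendrocyte-like cells, Sema6a was at 310, 244 and 891 CPM in placebo and 265, 386 and 196 in EPO mice (log2 -0.68, SE 0.41), and without placebo mouse 5 its log2 change was 0.054. Of the other members with the smallest p, Epha7 (log2 -0.54, SE 0.28), Efnb2 (0.40, SE 0.30), Robo1 (-0.66, SE 0.37) and Unc5d (0.75, SE 0.49) in glutamatergic-like cells and Ephb1 (0.38, SE 0.34), Sema4d (0.40, SE 0.41), Unc50 (-0.33, SE 0.38) and Efnb3 (0.27, SE 0.33) in oligodendrocyte-like cells had adjusted p of 1.00.

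**Figure D5:**
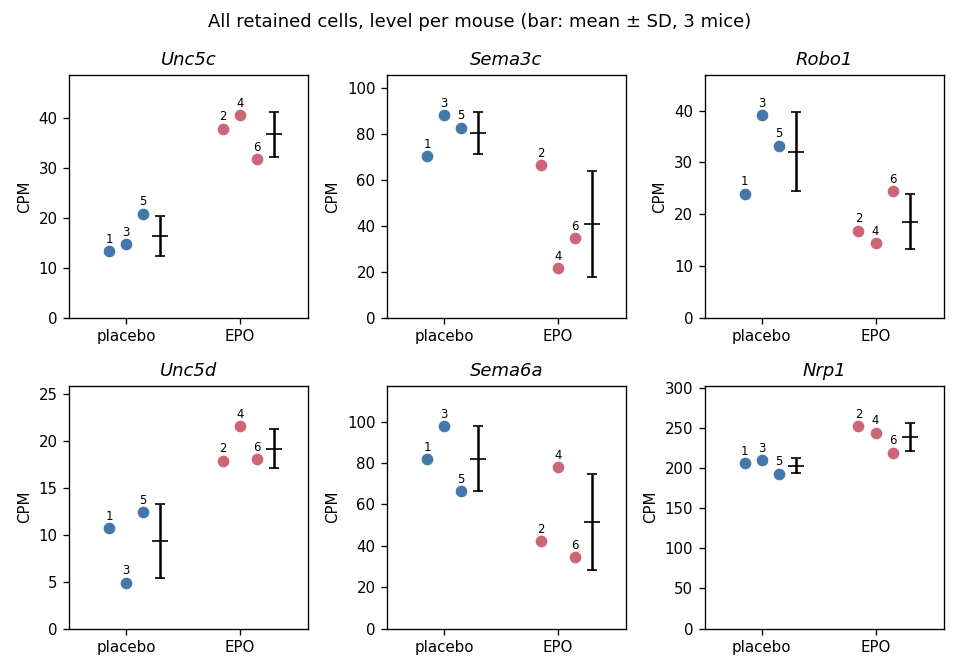
Points are levels in CPM over all retained cells for each mouse (numbers are mouse numbers; blue placebo, red EPO), with the mean ± SD of 3 mice as a black bar; every axis starts at 0. Unc5c, Unc5d and Nrp1 lie higher and Sema3c lower in all 3 EPO mice, Robo1 and Sema6a overlap, and none passed the adjusted threshold.

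Of the 63 partner and effector genes, 51, 48 and 15 were tested in all, glutamatergic-like and oligodendrocyte-like cells, and edgeR called none; 2, 0 and 0 had an unadjusted p under 0.05. These were Flrt3, an adhesion protein that binds Unc5 receptors (25.4 ± 5.7 CPM in placebo, 45.9 ± 5.1 in EPO; log2 0.73, SE 0.27, adjusted p = 1.00), and Dscam, a co-receptor for netrin (27.4 ± 11.6 and 50.6 ± 3.1; log2 0.69, SE 0.29, adjusted p = 1.00), both named after their values were seen. Median changes were 0.08, 0.06 and -0.06.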

How the data were processed

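Raw UMI counts of 20234 genes in 1000 barcodes of each of 3 placebo and 3 EPO mice were deposited by the authors as 1 table; the submitters' processing notes name bcl2fastq 2.15, STAR 2.4.0 and mm10. Missing values (25311000, for genes without a UMI in a mouse) were set to 0. Cells were clustered in Seurat 5.3.0 (R 4.3.3) on variable genes without members (20 dimensions, resolution 1) and named from standard markers. Scrublet in scanpy 1.11.5 called 0.369% to 18.6% of cells per mouse as doublets; they were kept, and left out in an alternative.

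UMIs were summed per mouse, or per mouse and class (at least 5 cells), and tested in edgeR 4.0.16 (TMM, quasi-likelihood, Benjamini-Hochberg at 5% over all genes). EPO tests used genes kept by filterByExpr; class tests used genes with at least 20 UMIs and mouse as a term. The procedures were tested on simulated data. DESeq2 1.42.0, limma 3.58.1 (prior count 2), RLE scaling, other filters, classes and resolutions, the D number, and each mouse left out were alternatives; leaving out shared-barcode or mural cells was added after seeing the data. CPM values are not scaled by length. UMI totals per mouse set the precision; limits for a count of 0 use 3 UMIs, and Poisson intervals are exact at 95%. Both cover counting error only.

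Members, marker lists and pathway lists were chosen with earlier results of these data known. Named are the 30 members with the most UMIs, up to 5 members per class and direction and the 5 with the smallest p per EPO comparison, their ligand or receptor partners, and up to 3 pathway genes per class and direction. Mice are taken as separate animals from their numbers. Gene positions are from GENCODE vM21.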

Additional observations from a re-analysis of the deposited data

Results flagged for a closer look

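Barcodes with at most 1000 genes, 5012 of 6000, were used in no comparison but hold signal of the members: 5599 UMIs, or 2234 CPM, against 3470 CPM in retained cells.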

How the results depend on the processing

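For EPO against placebo, the number of genes called over all retained cells was 0, but 1 with the D number as a term, 1 by DESeq2 and 52 without a filter on genes; in glutamatergic-like cells it was 0, but 11 without the filter, and from 0 to 7 with single mice left out (7 without placebo mouse 5); in oligodendrocyte-like cells it was 0, but 1 without the filter. No member was among the calls of any alternative run. Of the members named for EPO, the log2 changes of Sema4d and Sema6a in oligodendrocyte-like cells changed sign: with single mice left out they ran from -0.024 (without EPO mouse 2) to 0.69 and from -1.08 to 0.054 (without placebo mouse 5); the cause was not tested. Between classes, the number of members called fell from 21 to 13 (GABAergic-like) and from 8 to 5 (astrocyte-like) when each cell was classed by its own markers, rose from 8 to 20 (astrocyte-like) and from 16 to 30 (endothelial-like) in limma, and from 20 to 31 (oligodendrocyte-like) with at least 10 cells per library. Genes with an unadjusted p under 0.05, over all genes, moved the same way. They went from 3400 to 2974 and from 2930 to 2311 with cells classed by their own markers. In limma they went from 2930 to 4006 and from 3466 to 5001, and with at least 10 cells from 3787 to 4510. Counts of members called are therefore read no further. With single mice left out, the counts of members called ran from 10 to 22, 7 to 10, 11 to 16, 30 to 40, 20 to 23 and 7 to 8 in GABAergic-like, astrocyte-like, endothelial-like, glutamatergic-like, oligodendrocyte-like and precursor-like cells. Without the shared-barcode cells of both mice they were 20, 7, 13, 39, 18 and 7, against 21, 8, 16, 41, 20 and 9 with them. Over the named class members and their alternatives, 721 values kept direction and call, 40 kept direction and lost the call, and 0 changed direction. Not all of these 40 are named above. The minimum of 10 cells gave no value for precursor-like and endothelial-like cells, nor did leaving out EPO mouse 4, EPO mouse 6 or placebo mouse 1 for precursor-like cells. No paired analysis was possible because each mouse number belongs to 1 mouse; the D number, which mice of both groups share, was fitted as a term, with the count given above. The 38 precursor-like and 39 endothelial-like cells and the 43 cells of placebo mouse 3 limit the depth, so low members there were not detectable rather than absent.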
